A study of Mus musculus with 5480 samples.

Results

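The 10 genes followed here are known targets of the transcription factor p53, measured in single mesenchymal cells of the neonatal mouse lung: Cdkn1a, Mdm2, Ccng1, Phlda3, Gdf15, Sesn2, Eda2r, Zmat3, Trp53inp1 and Bax. They are 10 of the 18072 genes in the count table, and all 10 were found in it. They had been picked because earlier results on these same data showed p53 targets higher under hyperoxia, so their difference between hyperoxia and normal air at postnatal day 7 is described here and not tested. The series holds 5480 sorted cells of distal lung from 10 mice, 1 female and 1 male in each of 5 groups. Of these groups, 4 breathed or developed in normal air and were taken before birth, at embryonic day 18.5 (E18.5), or after it, on day 1 (P1), day 7 (P7) or day 21 (P21). The fifth was taken at P7 under a treatment labelled hyperoxia, which means breathing air enriched in oxygen. The oxygen level, the length of exposure and the mouse strain were not given in the sources used here. Each group is 2 mice, so every spread between the mice of a group is a spread between a female and a male animal. Spreads over the cells of 1 mouse are named as such.

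p53 is a transcription factor that is kept scarce in unstressed cells because Mdm2, itself a p53 target, marks it for destruction. DNA damage and oxidative injury free p53 from that control, and it then switches on genes that halt the cell cycle, limit growth signals, buffer oxidants or start programmed cell death. High oxygen is a known source of oxidative DNA damage in the lung, and Cdkn1a, which encodes the cell cycle inhibitor p21, is a textbook target in that setting. In these cells, 7 of the 10 genes or more had levels in both hyperoxia mice above both normal-air mice in 4 of the 5 cell classes with enough cells, and 5 of 10 did in vascular smooth muscle (3 with equal weight for each cell). Of all genes measured, 17.8% to 25.9% did so by class, and since the members were chosen on this contrast their counts are a description. The number of these genes with a read in the same cell was also higher, at 2.71 to 7.4 per cell in the hyperoxia mice against 1.25 to 2.23 in normal air.

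Promoter sequence was available for 8 of the 10 genes (RefSeq, build GRCm38.p6, 250 bases before to 50 after each annotated start, 10 windows). Both strands were searched for the 10-base p53 half-site consensus and for CATGNNNNNNCATG, the core of 2 half-sites placed end to end. These sequences are shown because p53 is known to act through such sites. The half-site was found in windows of 4 of the genes, and in 8.36% of all 32851 promoter windows. The paired core, which overlaps 1 of the half-sites, was found in 1 window, that of the upstream start of Cdkn1a, and in 0.712% of all windows. Capitals mark the matches, and each stretch is written in the gene's direction.
Cdkn1a, chr17:29090879-29090978, plus strand: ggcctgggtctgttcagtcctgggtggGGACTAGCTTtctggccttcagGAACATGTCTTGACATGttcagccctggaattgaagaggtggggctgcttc
Mdm2, chr10:117710910-117710969, minus strand: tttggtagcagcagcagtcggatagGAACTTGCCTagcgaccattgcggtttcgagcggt
Ccng1, chr11:40755437-40755496, minus strand: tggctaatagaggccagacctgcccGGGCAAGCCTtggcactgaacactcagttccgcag
Bax, chr7:45467065-45467124, minus strand: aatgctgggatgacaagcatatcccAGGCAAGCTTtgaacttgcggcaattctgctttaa
A match is a description of letters and not evidence of binding. The second Cdkn1a window, whose start lies 2790 bases further along the gene, held neither motif, and nor did the windows of Phlda3, Sesn2, Gdf15 and Eda2r.

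The mice gave 311 to 633 cells and 294154721 to 671766116 reads each, and the median cell held 774305 reads. Levels below are CPM, the reads of all cells of a mouse and class summed and set against the TMM-scaled library total, for classes with at least 10 cells per mouse. Depth per cell was equalised by thinning to 100000 reads where shares of cells are given, which left out 168 cells. Hyperoxia cells held more detected genes at that depth, with class medians of 3343 to 5323 genes per cell against 1545 to 3170 in normal air, and this bears on every share of cells with reads. The effect of the sequencing run cannot be told apart from that of hyperoxia. The runs of the hyperoxia mice held no other mice, apart from 1 run of CD31-sorted cells of the males described further on. The female hyperoxia mouse had a run of mesenchymal plates and a separate run of a few CD31-sorted cells. The defining mesenchymal markers had reads in all 10 normal-air libraries (8 of 8 genes) and in the hyperoxia libraries (7 or 8 of 8). Summed markers of other cells were at most 147.7 CPM for epithelial, 147.6 for endothelial and 140.1 for immune cells, with mesothelial markers at 654.1 CPM in early adventitial fibroblasts of the male hyperoxia mouse.

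Cdkn1a had the largest mean CPM of the set under hyperoxia in every class, though not in normal air, where Bax was higher in myofibroblasts (159.4 and 90.7 CPM). In myofibroblasts, the contractile fibroblasts of the growing alveolar walls, it was at 80.7 CPM in the female and 57 in the male in normal air, and at 2805 and 2697 in hyperoxia. The difference was 40-fold between group means (68.8 ± 16.8 and 2751 ± 75.9, SD, n = 2; fitted log2 difference 5.29, SE 0.70). In early airway smooth muscle it went from 138.2 and 24.3 CPM to 1636 and 1174 (fitted log2 4.54, SE 0.52). In early alveolar fibroblasts the normal-air mice were at 85.4 and 14.3 CPM and the hyperoxia mice at 928 and 964. Early adventitial fibroblasts had the highest mean in normal air, through the male (91.6 and 336.7 CPM), and were at 715 and 934 in hyperoxia. Vascular smooth muscle went from 120.1 and 100.9 to 827 and 518 CPM. The groups did not overlap in any of the 5 classes.

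**Figure D1:**
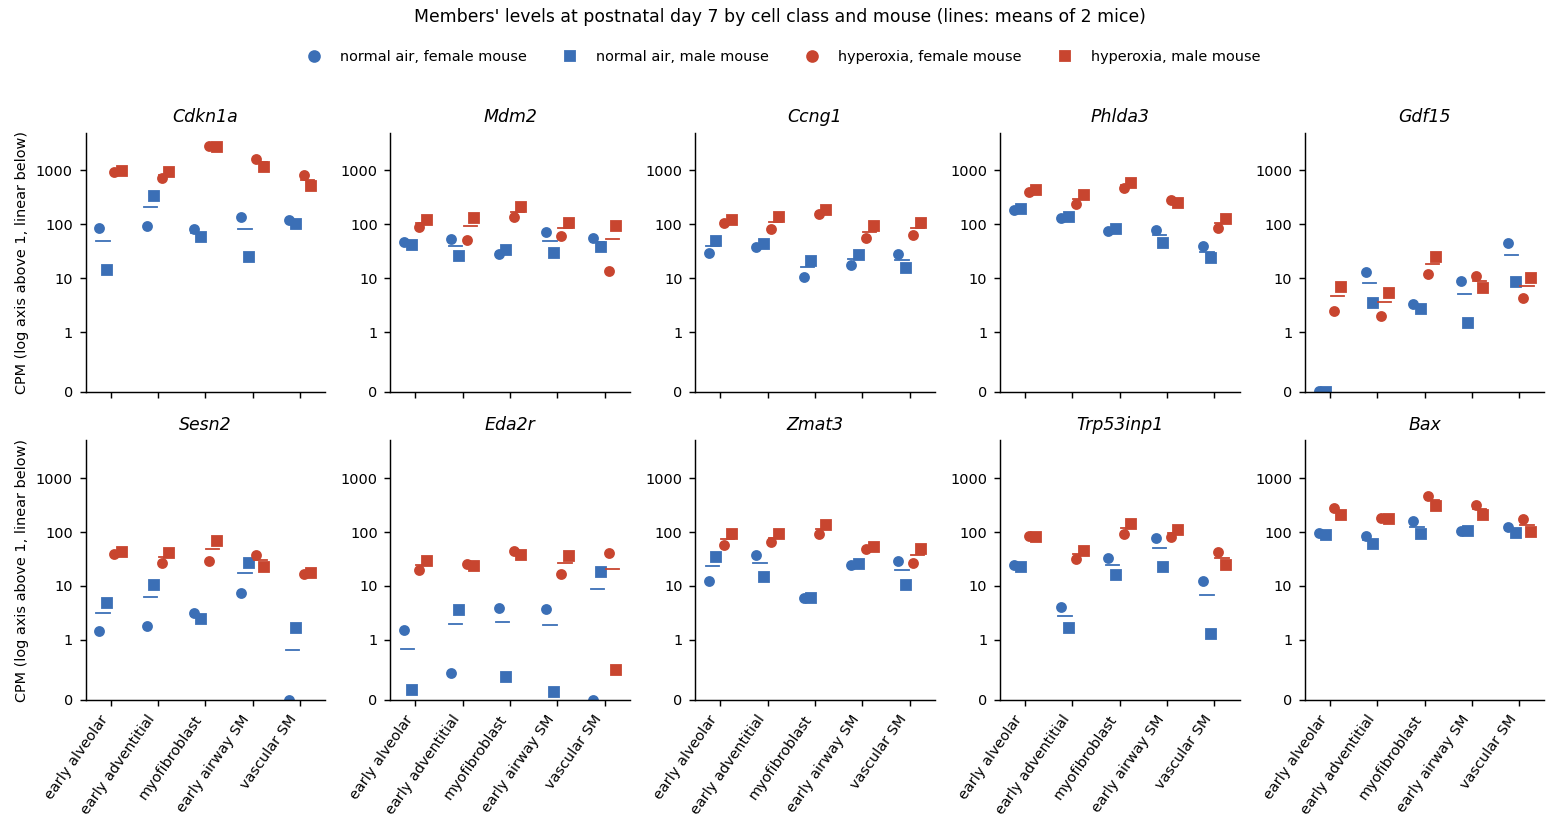
Levels of the 10 genes at P7 in CPM (log axis above 1), by cell class (SM, smooth muscle), with 1 point per mouse and short lines for the means of 2 mice. Red hyperoxia points lie above blue normal-air points for all 10 genes in early alveolar fibroblasts and myofibroblasts, while Mdm2, Gdf15, Eda2r, Zmat3 and Bax overlap in vascular smooth muscle.

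The other regulator of cell division in the set is Ccng1, which encodes cyclin G1 and takes part in p53 feedback. It was at 10.6 and 21.3 CPM in normal-air myofibroblasts and at 157 and 188 in hyperoxia (fitted log2 difference 3.52, SE 0.47). In the other 4 classes the normal-air mice lay between 15.3 and 50 CPM and the hyperoxia mice between 55 and 135.3, without overlap within any class. Mdm2, the ubiquitin ligase that degrades p53, differed less. It went from 28 and 33.8 to 135.6 and 206.7 CPM in myofibroblasts and from 47.8 and 41.7 to 91 and 122.4 in early alveolar fibroblasts. In early adventitial fibroblasts, early airway smooth muscle and vascular smooth muscle its groups overlapped, each time because the female hyperoxia mouse was below the female normal-air mouse (50.6 against 52.7, 61.9 against 70.9 and 13.4 against 55.6 CPM).

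Among the members that act on growth signals, Phlda3, an inhibitor of Akt signalling, was the most evenly measured. Its normal-air mice were at 187 and 190 CPM in early alveolar fibroblasts and its hyperoxia mice at 392 and 442. In myofibroblasts the values were 75.5 and 82 against 463 and 594 (fitted log2 difference 2.75, SE 0.34), and in vascular smooth muscle 39.1 and 23.4 against 87.3 and 127. Phlda3 did not overlap in any class. Sesn2, a sestrin that restrains mTORC1 and supports antioxidant defence, was at 1.43 and 4.91 CPM in normal-air early alveolar fibroblasts against 39.1 and 41.7 in hyperoxia. Vascular smooth muscle had 0 reads of it in the normal-air female and 1.66 CPM in the male, against 16.6 and 17.2. It overlapped in early airway smooth muscle alone, where the normal-air male was at 27.1 CPM and the hyperoxia male at 22.4.

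Eda2r encodes a receptor for ectodysplasin A2 of the TNF receptor family, and Gdf15 a secreted stress hormone of the TGF-beta family. Eda2r was near 0 in normal air in 4 classes, between 0.128 and 3.82 CPM, and at 16.5 to 44.2 CPM in hyperoxia. In vascular smooth muscle the hyperoxia female was at 40.6 CPM and the hyperoxia male at 0.503, against 0 and 17.8, so the groups overlapped. Gdf15 was the weakest member. It was at 12 and 24.8 CPM in hyperoxic myofibroblasts against 3.32 and 2.71, and at 2.46 and 6.75 in hyperoxic early alveolar fibroblasts against 4 reads in all in the female and 0 in the male. In early adventitial fibroblasts it was at 2 and 5.33 CPM in hyperoxia against 12.9 and 3.49, and in vascular smooth muscle at 4.24 and 9.91 against 45.4 and 8.37, with overlap and lower means in hyperoxia.

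Zmat3, an RNA-binding protein that alters splicing, was at 5.99 and 6.08 CPM in normal-air myofibroblasts and at 90.3 and 135 in hyperoxia (fitted log2 difference 4.14, SE 0.73). Its groups overlapped in vascular smooth muscle alone, at 29.4 and 10.6 against 26.8 and 48.4 CPM. Trp53inp1, which promotes p53-dependent death and autophagy, was at 3.98 and 1.63 CPM in normal-air early adventitial fibroblasts and at 32.2 and 44.9 in hyperoxia. In early airway smooth muscle its groups were separated by little, 79 and 22.5 against 80.6 and 107.2 CPM. Bax, a pore-forming activator of mitochondrial cell death, was at 159.4 and 90.7 CPM in normal-air myofibroblasts against 463 and 307, and in vascular smooth muscle at 126.1 and 95.8 against 171 and 99.9, with overlap.

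The count of members with both hyperoxia mice above both normal-air mice was 10 of 10 in early alveolar fibroblasts, where 23.1% of the 15446 genes measured did the same. It was 8 of 10 in early adventitial fibroblasts (25.9% of 14831 genes), 10 of 10 in myofibroblasts (23.1% of 13380), 7 of 10 in early airway smooth muscle (17.8% of 12887) and 5 of 10 in vascular smooth muscle (18.6% of 12417). All 10 passed the filter on low counts in each class, which a gene can pass through its hyperoxia level alone. The members' median fitted log2 difference was 1.77, 1.54, 3.13, 1.24 and 1.55 in the same order, and that of all genes was 0.06, 0.09, -0.01, -0.03 and -0.01. The vascular smooth muscle values rest on 22 cells per hyperoxia mouse. With only the first plate of the male hyperoxia mouse, 3 of 10 members lay above there and their median was 0.38. With equal weight for each cell, 3 of 10 lay above.

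On a scale that allows genes to be compared, CPM per kilobase of exon (GENCODE M21), Cdkn1a, Phlda3 and Bax were the 3 most abundant members under hyperoxia in every class. In hyperoxic myofibroblasts they were at 774, 339 and 244 CPM per kilobase, followed by Ccng1 at 49.2, Mdm2 at 33.7 and Trp53inp1 at 18, with Sesn2, Gdf15, Zmat3 and Eda2r at 6.88 to 13.9. In normal-air myofibroblasts the order of the leading genes differed: Bax was at 79.3, Phlda3 at 50.5 and Cdkn1a at 19.4 CPM per kilobase.

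Across the 6 labels with at least 10 cells in both hyperoxia mice, scaled together, myofibroblasts had the highest Cdkn1a, 2452 and 2528 CPM, above early airway smooth muscle at 1069 and 1527. The next 4 labels (proliferating fibroblasts, early alveolar fibroblasts, early adventitial fibroblasts and vascular smooth muscle) each overlapped their neighbour in the order, down to 558 and 870 CPM in vascular smooth muscle. Eda2r was likewise higher in both myofibroblast libraries (33.5 and 39.8 CPM) than in the early adventitial ones that came next (24 and 26.7). For Mdm2, Ccng1, Phlda3, Sesn2, Zmat3, Trp53inp1, Bax and Gdf15 the first label overlapped the next. Vascular smooth muscle was last by mean for 8 of the 10 members. The exceptions were Ccng1 and Gdf15.

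Labels with fewer cells gave values that are listed without a comparison, in CPM of total reads. Pericytes, the cells that wrap capillaries, numbered 26 and 31 in normal air but 5 and 3 in hyperoxia. Their Cdkn1a was at 0.0498 and 0 CPM in normal air and at 2114 and 1197 in hyperoxia, and their Zmat3 at 0.398 and 26.1 against 195 and 201. Proliferating myofibroblasts (32 and 45 cells against 17 and 8) had Cdkn1a at 20.4 and 140.5 against 2069 and 1888 CPM. Proliferating fibroblasts (17 and 6 cells against 23 and 36) had it at 67.3 and 404.8 against 969 and 1933. The male hyperoxic fibroblast, a label with 55 cells that all came from the second plate of the male hyperoxia mouse, had Cdkn1a at 529.6, Phlda3 at 330.1, Bax at 112.2 and Eda2r at 4.4 CPM. It has no normal-air cells to compare with. Proliferating pericytes, adventitial fibroblasts, striated muscle and the precursors of myofibroblasts and smooth muscle held 0 to 5 cells per mouse at P7.

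The share of cells with a read separated the conditions in the same classes. In myofibroblasts, Cdkn1a had a read in 8.55% of 152 cells (95% Wilson interval 5.07% to 14.1%) and 6.18% of 178 cells (3.48% to 10.7%) in normal air. In hyperoxia it had one in 94.8% of 58 cells (85.9% to 98.2%) and 93.3% of 45 cells (82.1% to 97.7%). In early alveolar fibroblasts the shares were 7.14% and 1.45% against 61.7% and 73.9%, and in early airway smooth muscle 13.3% and 3.17% against 71.9% and 66.7%. The vascular smooth muscle shares were 19.2% and 10.7% against 28.6% and 52.4%. Without thinning, the myofibroblast shares were 10.3% and 7.61% against 94.8% and 95.6%. These intervals cover counting error over the cells of 1 mouse only, and not the spread between mice. Reads copied from 1 molecule are also not independent.

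**Figure D2:**
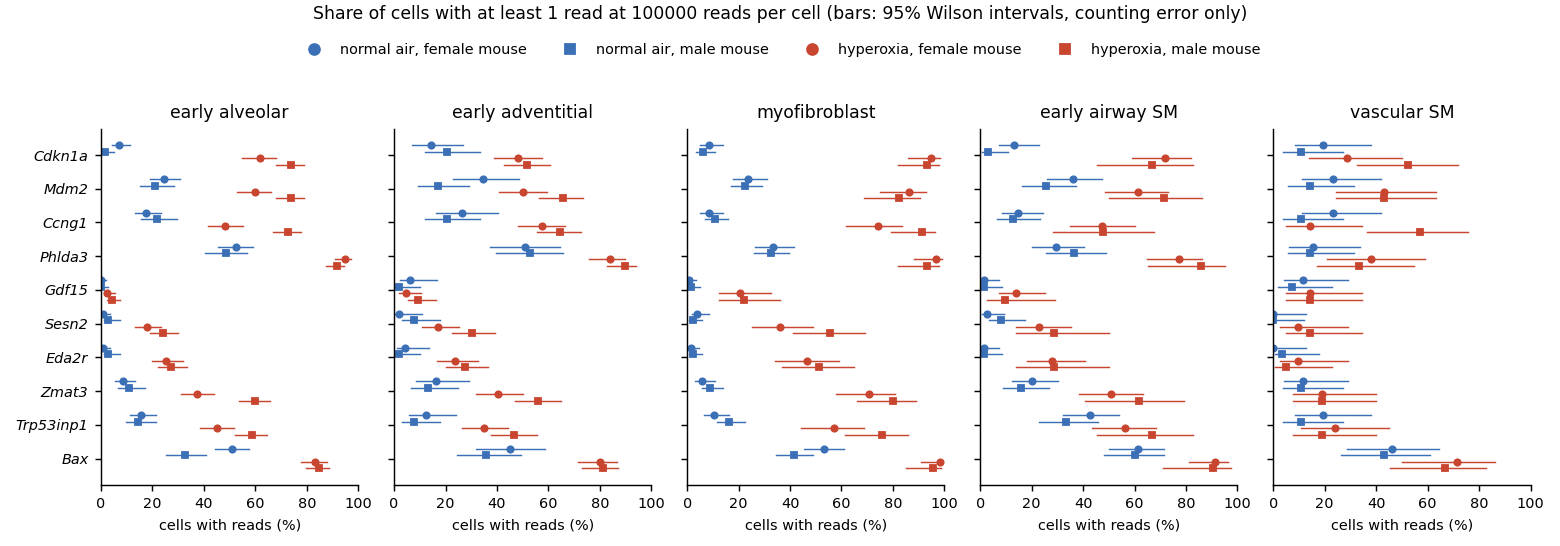
Share of cells with at least 1 read of each gene, in percent, after thinning every cell to 100000 reads, by class (SM, smooth muscle), with 1 point per mouse and 95% Wilson intervals. In myofibroblasts the hyperoxia mice reach 82.2% or more for Cdkn1a, Mdm2, Phlda3 and Bax, while the normal-air mice stay at 53.3% or less for all 10 genes.

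Abundant and scarce members alike were read in more hyperoxic myofibroblasts. In myofibroblasts, Bax had a read in 53.3% and 41.6% of normal-air cells and in 98.3% and 95.6% of hyperoxia cells, and Phlda3 in 33.6% and 32.6% against 96.6% and 93.3%. Eda2r went from 1.32% and 2.25% to 46.6% and 51.1% of cells, and Sesn2 from 3.95% and 2.25% to 36.2% and 55.6%. Gdf15 had a read in 0.658% and 1.69% of normal-air myofibroblasts and in 20.7% and 22.2% of hyperoxic ones. Gdf15 was found in 2.39% and 4.15% of hyperoxic early alveolar fibroblasts. It had no read in 210 and 138 thinned normal-air cells. A limit of 3 cells puts the share there at up to 1.43% and 2.17%, and the Wilson interval at up to 1.8% and 2.71%. Without thinning, 0.917% of the normal-air female's cells had a read. Sesn2 had no read in 26 and 28 normal-air vascular smooth muscle cells, where the limit of 3 cells is 11.5% and 10.7% and the Wilson interval reaches 12.9% and 12.1%. Without thinning, 3.23% of the normal-air male's cells had a read.

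Detection shares were higher in both hyperoxia mice for most genes measured, not only for these 10. The count for the members was 10, 9, 10, 10 and 8 of 10 in early alveolar, early adventitial, myofibroblast, early airway and vascular smooth muscle cells. Over all genes measured it was 70.5%, 70.6%, 82%, 51% and 55.2%, so the counts alone say little. In early alveolar fibroblasts the members' median was 39.8 percentage points against 6.6 for all genes, and 0.298% of genes reached it. In myofibroblasts it was 57 points against 16.6 (0.448% of genes reached it), in early airway smooth muscle 31.9 against 6.98 (1.4%) and in early adventitial fibroblasts 32.2 against 9.1 (4.38%). In vascular smooth muscle it was 15.4 points against 9.48, and 33% of all genes reached it. As the members were chosen on this contrast, these are descriptions.

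Among cells with a Cdkn1a read, without thinning, the median level in myofibroblasts was 409.8 and 232.7 CPM in normal air (16 and 14 cells) and 2935 and 2476 in hyperoxia (55 and 43 cells), so the level inside positive cells differed as well as their number. In early adventitial fibroblasts it was 258 and 298 CPM (7 and 13 cells) against 1117 and 1321 (54 and 60 cells). For Bax in the same class the positive cells had like levels, 162.3 and 114.3 against 144.3 and 153 CPM, while the share of thinned cells with a read went from 44.9% and 35.9% to 80.2% and 81%. The Cdkn1a median of positive vascular smooth muscle cells was 417 CPM in the normal-air female (5 cells) and 385 and 283 in hyperoxia (6 and 11 cells).

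Co-detection was counted as the number of the 10 genes with at least 1 read in a cell. Normal-air myofibroblasts held 1.5 ± 1.2 (female, SD over cells) and 1.45 ± 1.29 (male) of them, and hyperoxic ones 6.81 ± 1.75 and 7.4 ± 2.12. At least 5 of the 10 were found together in 1.97% and 2.25% of normal-air myofibroblasts, and in 84.5% (95% Wilson interval 73.1% to 91.6%) and 86.7% (73.8% to 93.7%) of hyperoxic ones. No hyperoxic myofibroblast had fewer than 2, and 43.1% and 60% had 8 or more. Early alveolar fibroblasts had a mean of 1.79 and 1.57 against 4.76 and 5.71 genes, and cells with at least 5 made up 3.81% and 1.45% against 51.7% and 69.3%. Early adventitial fibroblasts went from 2.12 and 1.79 to 4.41 and 5.22 genes and early airway smooth muscle from 2.23 and 1.98 to 5.21 and 5.57. Vascular smooth muscle showed the smallest difference, 1.69 and 1.25 against 2.71 and 3.24 genes. There, 9.52% and 23.8% of hyperoxia cells held 5 or more, which is 2 and 5 of 21 cells.

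**Figure D3:**
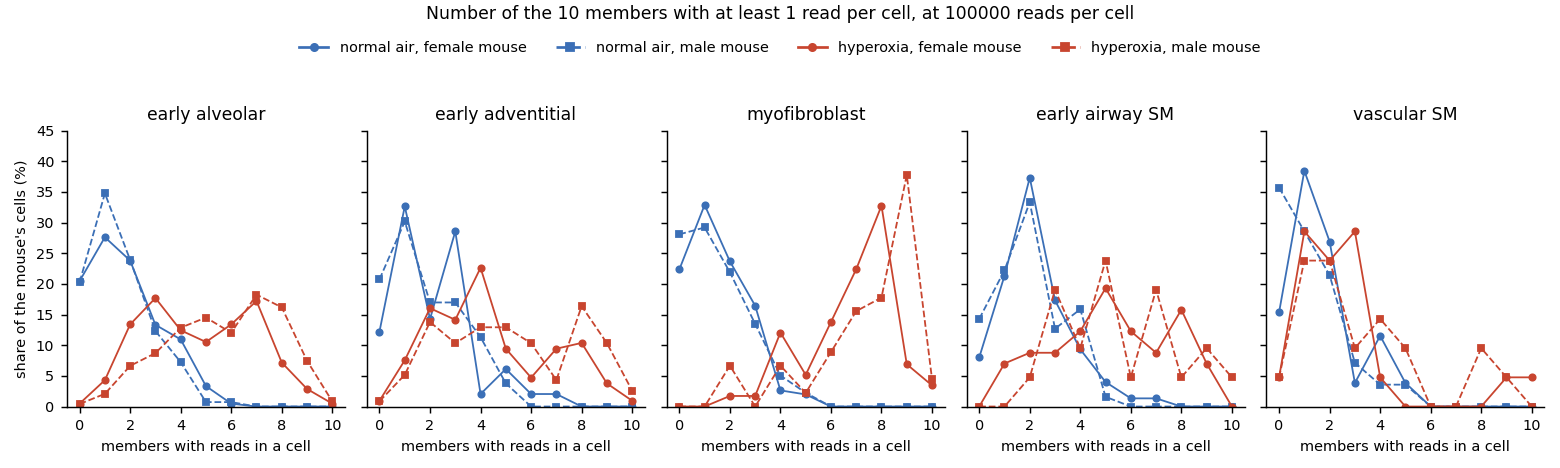
Distribution of cells over the number of the 10 genes with a read (x axis, 0 to 10), as a percentage of each mouse's cells in a class (SM, smooth muscle), at 100000 reads per cell. Normal-air cells peak at 0 to 2 genes, hyperoxic myofibroblasts at 8 (female) and 9 (male), and hyperoxic vascular smooth muscle lies mostly at 1 to 3 with a few cells at 8 to 10.

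Because hyperoxia cells held more genes in all, the count was repeated in cells with 2500 to 4500 detected genes, an alternative chosen after the data had been seen. In myofibroblasts it was then 2.12 and 2.2 genes in normal air (56 and 55 cells) against 6.48 and 6 in hyperoxia (29 and 7 cells), with median gene numbers of 3146 and 3023 against 4137 and 4254. In early alveolar fibroblasts it was 2.49 and 2.54 against 4.67 and 5.38, with 3520 and 3292 against 3563 and 3934 genes per cell. The female early airway smooth muscle cells were the closest match, with 2.63 members in 43 normal-air cells at a median of 3791 genes and 5.13 members in 55 hyperoxia cells at 3657 genes. In early adventitial fibroblasts the difference between the group means went from 2.86 to 1.49 genes. For vascular smooth muscle it went from 1.5 to 0.217 genes, with 1.83 and 2.2 in normal air (6 and 5 cells) against 2 and 2.47 in hyperoxia (15 and 15 cells). There the mice of the 2 conditions overlapped at a like number of genes.

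Dividing cells and pericytes also held more members in hyperoxia. Hyperoxic proliferating fibroblasts held 5.78 and 6.5 of the 10 genes (23 and 36 cells) against 2.06 and 1.67 (17 and 6 cells). Hyperoxic proliferating myofibroblasts held 6.82 and 7.25 (17 and 8 cells) against 2.23 and 2.02. All 8 hyperoxic pericytes had at least 5 of the genes, against none of 25 and 30 normal-air pericytes. The male hyperoxic fibroblasts held 5.38 ± 2.13 (SD over cells), beside 5.71 ± 2.18 in early alveolar fibroblasts of the same mouse. Over all 49 normal-air libraries of a label and mouse with at least 10 such cells, at every age, the mean lay between 0.429 and 3.13 genes, and over 14 hyperoxia libraries between 2.71 and 7.4. Hyperoxic vascular smooth muscle lay within the normal-air range in the female and just above it in the male.

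Inside the hyperoxia mice, cells with a Cdkn1a read also held more of the other 9 genes. In early alveolar fibroblasts of the female, 129 cells with Cdkn1a held 5.01 ± 1.73 (SD over cells) of the other 9 and 80 cells without it 2.74 ± 1.12, with 3644 and 3395 genes per cell. In the male the values were 5.56 ± 1.73 in 178 cells and 3.3 ± 1.36 in 63 cells (4326 and 4122 genes). In early adventitial fibroblasts of the female the number of genes per cell was nearly equal, 4023 and 4032, and cells with Cdkn1a held 5.08 ± 2.11 of the others against 2.85 ± 1.28. In early airway smooth muscle of the female it was 5.17 ± 1.83 against 2.75 ± 1.57. In normal air, 15 early alveolar fibroblasts of the female with Cdkn1a held 2.4 ± 1.18 and 195 without it 1.66 ± 1.36, with 3020 and 2250 genes per cell.

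Co-detection of each pair of members was compared with the product of their shares within 1 mouse and class. In hyperoxic early alveolar fibroblasts, 36 of 45 pairs in the female and 43 in the male had at least 5 cells expected, and observed co-detection exceeded the product in all of these pairs. The median ratio was 1.2 in the female and 1.14 in the male. In the same class in normal air the median was 1.41 over 14 pairs and 1.23 over 9 pairs. In hyperoxic myofibroblasts, where most members were in most cells, it was 1.03 and 1.07. The number of members per cell went with the number of genes per cell in every mouse of the 5 classes, with Pearson's r of 0.26 to 0.8 over cells, and the part of gene number in the pair ratios was not tested.

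A single sequencing run held cells of both conditions at P7, from a CD31 sort of the male mice. It also held a few cells of other ages, which were not used here. After thinning it had 10 P7 normal-air cells and 9 hyperoxia cells, of mixed labels. Cdkn1a had a read in 1 of 10 normal-air cells and in 7 of 9 hyperoxia cells, and Eda2r in 0 and 3. The others differed by at most 2 cells, in either direction: Mdm2 (3 and 5), Phlda3 (8 and 8), Ccng1 (4 and 4), Zmat3 (4 and 4), Bax (8 and 9), Gdf15 (0 and 1), Sesn2 (2 and 1) and Trp53inp1 (4 and 2). The mean was 3.4 genes per cell in normal air and 4.89 in hyperoxia, with 4340 and 3837 detected genes per cell, so here the hyperoxia cells held fewer genes in all. The labels differed between the sides, with 7 early alveolar fibroblasts among the 14 unthinned normal-air cells and 7 early adventitial fibroblasts among the 9 hyperoxia cells. The plates of the male hyperoxia mouse's own run gave 7.16 and 7.58 members per myofibroblast and 5.55 and 5.91 per early alveolar fibroblast.

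A list of 38 other known p53 targets, of which 37 were in the table, was tested with edgeR's quasi-likelihood test over all genes. It was drawn up with earlier results of these data known. No gene of the list, and 0% of all genes, passed an adjusted p of 0.05 in any of the 5 classes. At an unadjusted p under 0.05, 7 of 35 tested list genes were higher in early alveolar fibroblasts, 10 of 36 in early adventitial fibroblasts, 13 of 33 in myofibroblasts, 8 of 33 in early airway smooth muscle and 2 of 33 in vascular smooth muscle, and none were lower. Over all genes, 370 of 15446, 671 of 14831, 456 of 13380, 287 of 12887 and 183 of 12417 were higher at that threshold. Another 76, 562, 391, 241 and 136 were lower. DESeq2 called 8 (7 higher, 1 lower), 5, 11, 3 and 1 of the tested list genes. In all it called 311, 497, 377, 197 and 215 of those same totals, in either direction.

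By the levels of single mice, 21 of 35 list genes (60%) lay higher in both hyperoxia mice in early alveolar fibroblasts, 22 of 36 (61.1%) in early adventitial fibroblasts, 24 of 33 (72.7%) in myofibroblasts, 18 of 33 (54.5%) in early airway smooth muscle and 21 of 33 (63.6%) in vascular smooth muscle. Over all genes the shares are those given above, 17.8% to 25.9%. The list's median fitted log2 difference was 1.73, 1.71, 2.3, 1.3 and 1.64. Of the list genes tested in all 5 classes, 8 were above in all of them (Aen, Bbc3, Ddit4l, Ei24, Ephx1, Fas, Psrc1 and Tnfrsf10b), and 3 in none (Ercc5, Sesn1 and Tigar). These names, and those that follow, were picked after their values had been seen.

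**Figure D4:**
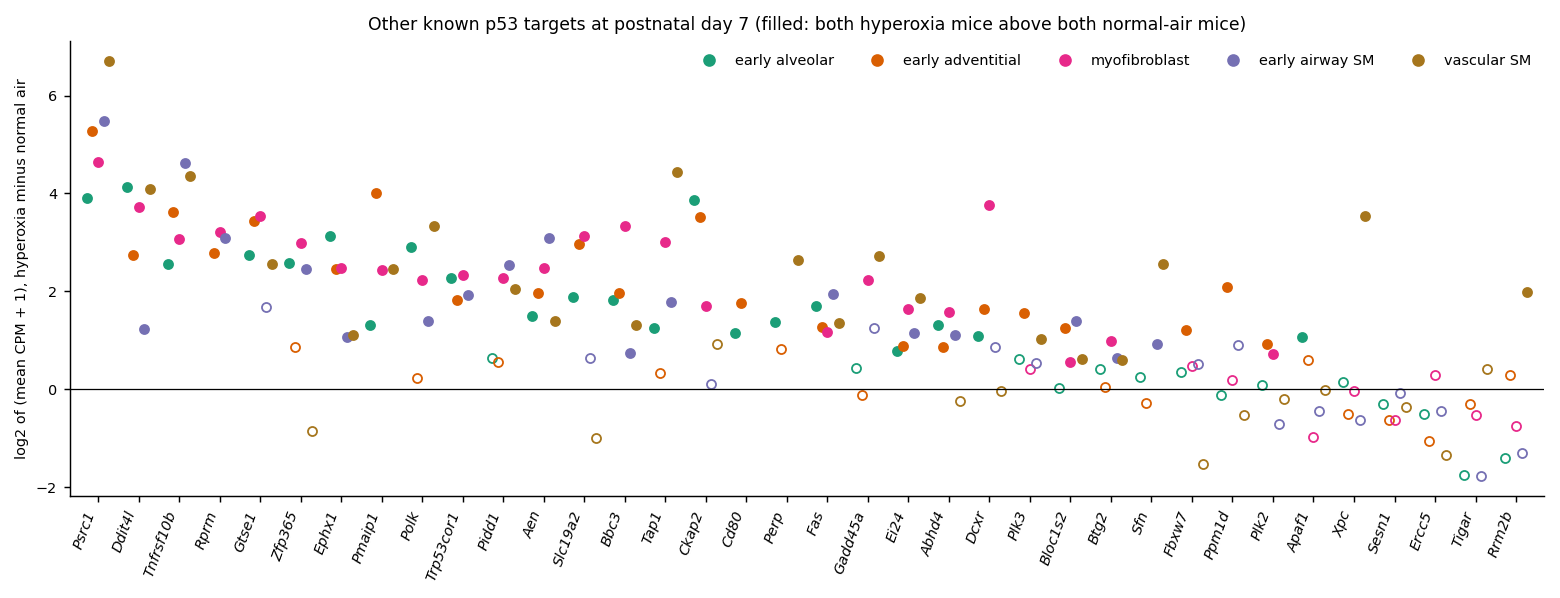
Differences of 36 other p53 targets at P7 between hyperoxia and normal air (y axis, log2 of mean CPM + 1), with 1 point per gene and cell class (SM, smooth muscle). Filled points, where both hyperoxia mice lie above both normal-air mice, make up 54.5% to 72.7% of the genes tested in a class and gather on the left, led by Psrc1.

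Psrc1, a microtubule-associated protein, is the leftmost gene of that plot. It had 0 reads in the normal-air early airway smooth muscle of both mice, within 102846730 and 62487781 reads. In hyperoxia it was at 52.1 and 35.7 CPM, 2586 times a floor of 3 reads over the group, with a lower limit of 2102. This limit covers counting error of reads only, and reads copied from 1 molecule are not independent. Psrc1 had an edgeR adjusted p of 0.589 and a DESeq2 adjusted p of 0.105 there. In myofibroblasts it was at 8.79 and 4.07 CPM against 241.1 and 130 (fitted log2 difference 4.89, SE 0.51, edgeR adjusted p 0.175, DESeq2 adjusted p 5.1e-17). Aen, a nuclease of apoptotic cells, was at 35.4 and 42.7 CPM in normal-air myofibroblasts against 253 and 191.2 (fitted log2 2.46, SE 0.44, edgeR adjusted p 0.308). Tnfrsf10b, the TRAIL death receptor, was at 1.83 and 7.28 CPM in normal-air myofibroblasts and at 40.4 and 51.2 in hyperoxia. The death receptor Fas was at 18.8 and 32.6 against 69.1 and 49.2 CPM there. Sesn1, the sestrin closest to Sesn2 in the set, did not lie above in any class.

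Trp53, which encodes p53 itself, was at 227 and 208.7 CPM in normal-air myofibroblasts and at 256.1 and 187.5 in hyperoxia (fitted log2 difference 0.02, SE 0.34, edgeR adjusted p 0.998), less than the spread between mice. Its groups overlapped in 4 of the 5 classes. In early airway smooth muscle it was lower in both hyperoxia mice, at 174.8 and 173.2 CPM against 210.1 and 182.4 (adjusted p 1). Mdm4, the partner of Mdm2 in holding p53 down, was at 54.9 and 85.5 CPM in normal-air myofibroblasts against 66.1 and 58.8. Of the list of 16 p53 regulators, 14 were in the table. In the 5 classes 2 of 14, 2 of 13, 3 of 13, 3 of 13 and 2 of 13 tested genes lay above in both hyperoxia mice. Another 1, 5, 1, 4 and 4 lay below. Of all genes, 23.1%, 25.9%, 23.1%, 17.8% and 18.6% lay above. The list medians were -0.11, -0.53, 0.27, -0.40 and -0.11. Crebbp, of this list, lay above in every class. In myofibroblasts it was at 198.9 and 193.6 CPM against 390.8 and 481.6 (fitted log2 difference 1.14, SE 0.29, edgeR adjusted p 0.563, DESeq2 adjusted p 0.0239).

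Further lists were read beside these genes. Genes of the integrated stress response, an ATF4 program that also controls Sesn2 and Gdf15, lay above in both hyperoxia mice for 5 of 18, 5 of 18, 9 of 18, 5 of 18 and 4 of 17 tested members, with medians of 0.25, -0.12, 0.62, 0.24 and -0.08. As shares these are 27.8%, 27.8%, 50%, 27.8% and 23.5%, beside 23.1%, 25.9%, 23.1%, 17.8% and 18.6% of all genes. In myofibroblasts Atf4 was at 250.5 and 256.6 CPM against 484.3 and 472.9 (fitted log2 0.92, SE 0.29, edgeR adjusted p 0.69). Nupr1, of the same list, was lower there, at 395.7 and 830.9 CPM against 213.2 and 111.8 (fitted log2 -1.86, SE 0.51, edgeR adjusted p 0.603). DESeq2 called 4 genes of this list in early adventitial fibroblasts, 1 higher and 3 lower. Immediate early and heat shock genes that tissue dissociation induces had medians of -0.50, -0.11, 0.06, -0.72 and 0.37. Of these, 4 of 14, 5 of 14, 4 of 13, 7 of 14 and 2 of 14 lay below in both hyperoxia mice, and 2, 2, 3, 3 and 5 above. In early airway smooth muscle DESeq2 called 7 of the 14 (2 higher, 5 lower), among 197 of 12887 genes in all. In early adventitial fibroblasts it called 2 of the 14, both lower. Of the cell division genes, 9 of 14 lay below in both hyperoxia mice in early alveolar fibroblasts, 0 of 14 in early adventitial fibroblasts, 11 of 14 in myofibroblasts, 6 of 12 in early airway smooth muscle and 3 of 13 in vascular smooth muscle. Over all genes 20.3%, 19.9%, 23.9%, 19.2% and 17.9% did. In myofibroblasts Cdk1 was at 80.8 and 93.9 CPM against 12.5 and 13.3 (fitted log2 -2.75, SE 0.45, edgeR adjusted p 0.278). None of the genes on these 3 lists passed the edgeR threshold. In myofibroblasts, 5 integrated stress genes (4 higher, 1 lower), 5 dissociation genes (2 higher, 3 lower) and 7 cell division genes (all lower) were at an unadjusted p under 0.05. DESeq2 called 4 (3 higher, 1 lower), 2 (both higher) and 5 (all lower). Markers of other cells also differed. In myofibroblasts summed immune markers were at 72.8 and 38.8 CPM against 140.1 and 101.7, with 6 and 6 of 9 seen in normal air and 4 and 7 in hyperoxia (Adgre1 and Cd3e at 0 in both hyperoxia mice). In early adventitial fibroblasts summed endothelial markers were at 57.7 and 21.6 CPM against 67.5 and 147.6, with 6 and 7 of 8 markers seen in normal air (Tie1 and Emcn at 0 in the female, Cdh5 in the male) and 8 of 8 in hyperoxia. Of the 8, 7 lay above in both hyperoxia mice there, beside 25.9% of all genes, with a median fitted log2 difference of 7.87. DESeq2 called 4 of them, all higher, and edgeR none. Summed mesothelial markers were at 217.9 and 0.0652 CPM against 575.9 and 654.1, with 4 of 4 seen in 3 of the 4 mice. Summed endothelial markers in vascular smooth muscle were at 7.25 and 24.2 CPM against 30.8 and 101.4. Their part in the members' values was not tested.

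The members were next followed over age in normal air, where their choice does not fix the result. From E18.5 to P1, 1 of 10 members passed in alveolar fibroblasts, where 6.16% of 15670 genes did. That gene was Ccng1, with 0 and 1 reads at E18.5 in 14 and 24 cells and 25.9 and 24.6 CPM at P1 (fitted log2 change 8.74, SE 1.24, edgeR adjusted p 0.0284). The E18.5 libraries held 3123998 and 13571674 reads against 215725933 and 380641721 at P1. Most E18.5 fibroblasts carried the label fibroblast precursor, which was not joined to this lineage. With all libraries scaled together, Ccng1 was at 19.9 and 21.8 CPM in these precursors (425 and 335 cells). On that scale it was at 26.3 and 25 CPM in early alveolar fibroblasts at P1. Early alveolar cells of the E18.5 male had a median of 934 genes per cell against 2491 and 2436 at P1, and the part of this in the call was not tested. By counts the ratio was 422 with a 95% interval of 75.7 to 16665, which covers counting error only. The median of all genes there moved by 1.36 on the log2 scale and that of the members by 3.1, and the call was lost when any 1 mouse of the P1, P7, P7 hyperoxia or P21 groups was left out (adjusted p 0.0578 to 0.157). DESeq2 called 4 members (Ccng1, Phlda3, Sesn2 and Zmat3) and 23% of all genes, and 4 members and 21% of all genes were at an unadjusted p under 0.05 by edgeR. Of the other p53 targets 3 of 35 tested (Dcxr, Plk3 and Tap1) passed the edgeR threshold there, beside the same 6.16% of all genes. In adventitial fibroblasts 0 of 10 members passed (0.17% of 15289 genes; 1 member and 9.23% of genes at an unadjusted p under 0.05, 0 and 5.15% by DESeq2), and in pericytes 0 of 10 (0.042% of 11894 genes; 0 and 5.4% at an unadjusted p under 0.05, 0 and 5.51% by DESeq2).

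From P1 to P21, Cdkn1a rose in airway smooth muscle, the muscle around the conducting airways. It went from 207.9 CPM in the female and 92 in the male to 1916 and 3812 (fitted log2 change 4.54, SE 0.75, edgeR adjusted p 0.0265), and it was the only 1 of 10 members to pass there, among 1.04% of 13496 genes. At an unadjusted p under 0.05 there were 2 members and 13.3% of genes, and DESeq2 called 4 and 12.3%. Its groups did not overlap. Without 1 of 4 mice the fitted change kept its direction but the adjusted p was 0.117 (P1 female), 0.246 (P1 male), 0.0527 (P7 hyperoxia male) or 0.0619 (P21 male, with a log2 change of 3.11). Of the other p53 targets 1 of 34 tested passed, beside the same 1.04% of all genes. It was Fas, from 0 and 0.719 CPM to 96.4 and 154.7 (edgeR adjusted p 0.0291). Of 14 dissociation genes 3 passed in the same cells: Atf3, from 509.2 and 639.6 to 4055 and 3410 CPM, Dusp1 and Hspa1a. The summed level of that list went from 24970 and 24240 to 63676 and 46709 CPM, and its part in the Cdkn1a change was not tested.

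In P21 airway smooth muscle a Cdkn1a level above that of hyperoxia stood beside fewer of the members per cell. At P21, 80.7% (95% Wilson interval 69.2% to 88.6%) of 62 cells in the female and 85.7% (74.3% to 92.6%) of 56 cells in the male had a Cdkn1a read. All the cells together held 1.94 and 1.61 of the 10 genes on average, with at least 5 in 3.23% and 0% of cells. Hyperoxic early airway smooth muscle had a Cdkn1a read in 71.9% and 66.7% of cells and held 5.21 and 5.57 of the genes, with at least 5 in 63.2% and 66.7%. P21 cells labelled airway smooth muscle held 1902 and 1729 detected genes at the median and the hyperoxia cells 3660 and 4419, and the part of gene number in this contrast was not tested. At P21 Phlda3 was at 43.8 and 23.8 CPM, Bax at 24.1 and 43 and Eda2r at 0.0219 and 4.23, against 261.7 and 230.8, 302.2 and 189.1, and 15.4 and 33.8 in hyperoxia. For Mdm2, Zmat3 and Gdf15 the P21 and hyperoxia mice overlapped. Mdm2 was at 63.3 and 126.3 CPM at P21 against 57.9 and 99.8 in hyperoxia, Zmat3 at 15.1 and 46.8 against 44.5 and 48.3, and Gdf15 at 19.3 and 0 against 10.5 and 5.98.

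In the other lineages no member passed from P1 to P21 by edgeR. In adventitial fibroblasts it was 0 of 10, against 0.386% of 15289 genes. Cdkn1a went from 131 and 242 to 436.5 and 821.5 CPM there without overlap (adjusted p 0.144), 4 members and 8.91% of genes were at an unadjusted p under 0.05 and DESeq2 called 3 and 4.65%. The count was 0 of 10 in alveolar fibroblasts (0% of 15670 genes; 0 members and 6.36% of genes at an unadjusted p under 0.05, 0 and 5.37% by DESeq2). In vascular smooth muscle it was 0 of 10 (0.0805% of 12417 genes; 1 member and 6.85% of genes at an unadjusted p under 0.05, 4 and 6.97% by DESeq2), and in pericytes 0 of 10 (0.0252% of 11894 genes; 0 members and 4.69% of genes at an unadjusted p under 0.05, 0 and 3.64% by DESeq2). Gdf15 in vascular smooth muscle went from 26.9 and 2.79 to 64.3 and 419.3 CPM (edgeR adjusted p 0.681, DESeq2 adjusted p 0.0146).

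**Figure D5:**
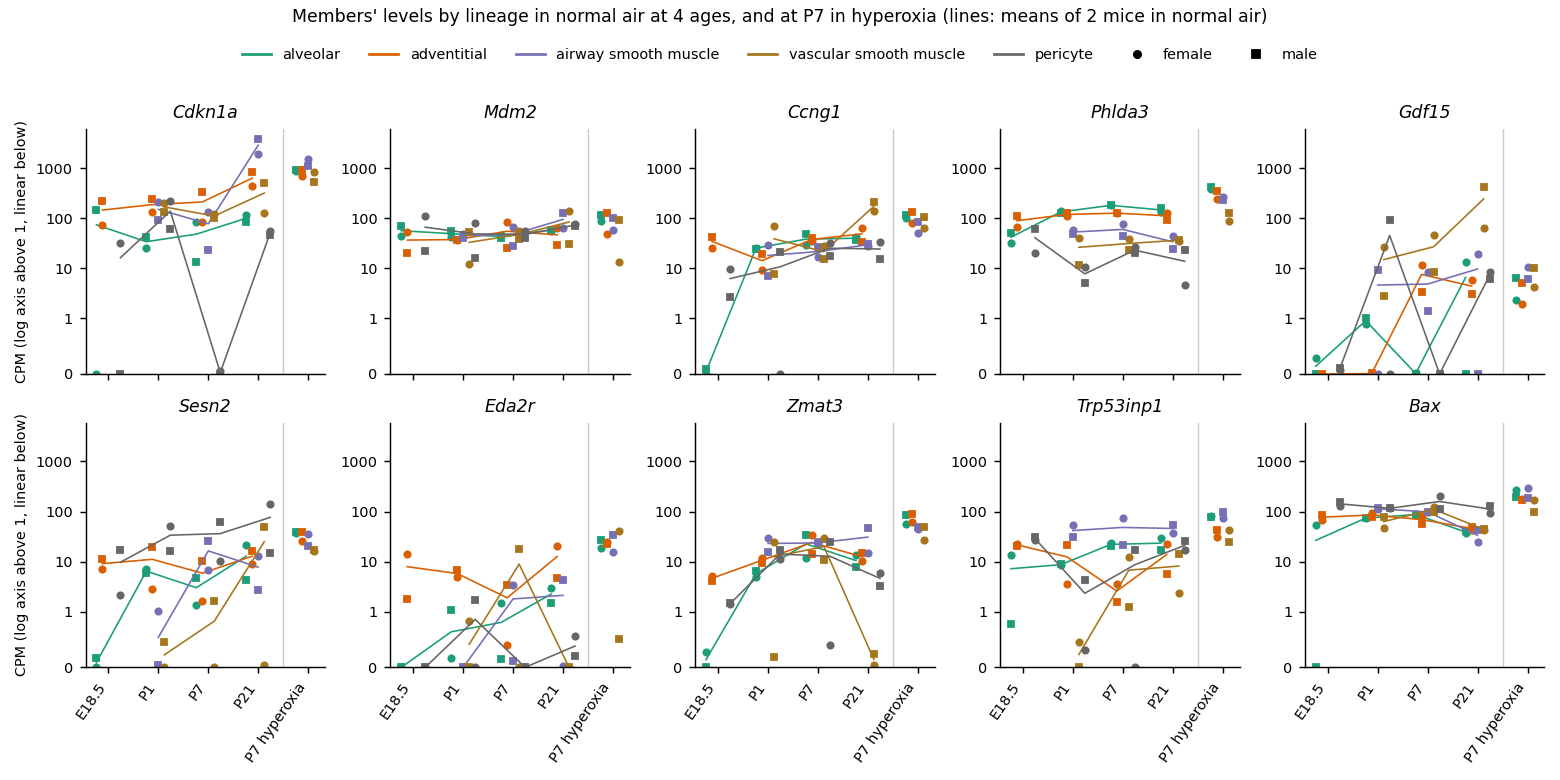
Levels of the 10 genes in CPM (log axis above 1) in 5 lineages in normal air from E18.5 to P21 and, right of the grey line, at P7 in hyperoxia, with 1 point per mouse and lines through the means of 2 mice. Phlda3 and Bax in hyperoxia lie above every normal-air mouse of the alveolar, adventitial and airway lineages, while Cdkn1a in airway smooth muscle at P21 (1916 and 3812 CPM) lies above its hyperoxia values.

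Set against every normal-air age, the hyperoxia mice were above all 8 normal-air mice for 9 of 10 members in the alveolar lineage (4.28% of all genes) and for 7 of 10 in the adventitial lineage (4.55%). They were above all 6 measured for 5 of 10 in airway smooth muscle (3.96% of all genes) and for 3 of 10 in vascular smooth muscle (3.68%), namely Cdkn1a, Phlda3 and Trp53inp1. The P7 mice that chose the members are among these, so the counts are a description. In the alveolar lineage the exception was Gdf15, at 13.1 CPM in the P21 female. Cdkn1a was matched at P21 in adventitial fibroblasts (821.5 CPM in the male, against 693.4 and 909.7 in hyperoxia). Myofibroblasts were not among these lineages. With all libraries scaled together, their P1 mice (39 and 32 cells) were at 2.22 and 33.6 CPM for Gdf15, against 10.8 and 22.5 in hyperoxia. Sesn2 was at 8 and 31 CPM there, against 26.1 and 61.3. For the other members both P1 mice lay below both hyperoxia mice. Over all 64 libraries of a label and mouse with at least 10 cells, Phlda3, Eda2r and Zmat3 were the members for which no normal-air library reached the median of the 14 hyperoxia libraries (311.4, 26.1 and 64.6 CPM). For Gdf15, 16 of 50 normal-air libraries did, and its highest level, 420.4 CPM, was in vascular smooth muscle of the P21 male. Striated muscle of the P21 female had the highest Ccng1 (1258 CPM) and Mdm2 (284 CPM) of any library. That library held 16 cells and 6748897 reads, with a median of 868 genes per thinned cell. It was at 0 CPM for Phlda3, Gdf15, Sesn2, Eda2r and Trp53inp1.

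How closely the members went together was described over the same 64 libraries, which share mice, runs and depth. Each member was compared with the mean standardised log2 CPM of the other 9. Eda2r (Pearson's r 0.72), Zmat3 (0.7) and Cdkn1a (0.61) were closest, and Mdm2 and Gdf15 (both 0.3) least so. In the 50 normal-air libraries alone the r was 0.36 for Eda2r and Zmat3, 0.3 for Cdkn1a, -0.003 for Phlda3 and -0.13 for Mdm2. Among 9460 other genes with a mean of at least 10 CPM, the 8 whose pattern was most like the mean of the members were Tmem263 (r 0.73), Kdelr2 (0.73), Gnb1, Pqlc3, Ptges3, Rbm26, Rrn3 and Kdm6b (0.7). None of the 8 is on the list of other p53 targets. Tmem263 was at 206.3 to 576.5 CPM in the hyperoxia libraries and 47.8 to 219.5 in the normal-air libraries at P7, and Kdelr2, a receptor that returns proteins to the endoplasmic reticulum, at 292.9 to 1017 and 85.5 to 353.7.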

How the data were processed

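Mesenchymal cells sorted from distal lung were read by a plate-based Tn5 single-cell RNA-seq method without molecular identifiers. The values are raw read counts per gene and cell, deposited by the authors. STAR 2.5.2b and HTSeq 0.10 are named in the submitters' processing notes, which list the build GRCh38 although the samples are mouse, so no gene coordinate is taken from the files. Cell subtype labels and mice are those of the labels, and cells were not clustered again.

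The reads of all cells of a mouse and label were summed where a mouse had at least 10 such cells. Early and later labels were joined into lineages for comparisons between ages, without the proliferating, precursor and myofibroblast labels. edgeR 4.0.16 (R 4.3.3) was run with TMM scaling, its filter on low counts, and a model of sex and group over all groups, using the two-sided quasi-likelihood test with Benjamini-Hochberg adjustment over all genes tested and a threshold of 0.05. DESeq2 1.42.0 was an alternative. The scripts were checked on simulated counts. Shares of cells and co-detection used cells thinned to 100000 reads. Doublets were not called. Total counts per mouse were 294154721 to 671766116, and the cells of a class, 21 to 241 per mouse after thinning at P7, set the precision of shares.

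The members and all gene lists were chosen with earlier results of these data known. The text names the 10 members, genes of the other lists past the threshold (at most 8 per class), and the 8 genes most like the members. Other names were chosen after their values were seen. Nothing in the labels says that the 2 mice of a group came from separate litters, and p-values measure the spread between these animals only. Summed markers of erythroid cells were at most 11.3 CPM in any class.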

Additional observations from a re-analysis of the deposited data

Results flagged for a closer look

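For several members the fitted change over age had opposite signs in different lineages, with both mice of each lineage on one side. None of these differences between lineages was tested, and of the single changes only Cdkn1a in airway smooth muscle and Ccng1 in alveolar fibroblasts passed edgeR's adjusted threshold. Cdkn1a from P1 to P21 had a fitted log2 change of 1.62 in alveolar fibroblasts (SE 1.82, edgeR adjusted p 0.971), 1.75 in adventitial fibroblasts (SE 0.40, adjusted p 0.144) and 4.54 in airway smooth muscle (SE 0.75, adjusted p 0.0265), against -0.75 in pericytes (SE 1.79, edgeR adjusted p 1), where it went from 215.4 and 60.6 CPM to 54.7 and 47.2. Zmat3 over the same interval had a fitted log2 change of 0.89 in alveolar fibroblasts (SE 1.23, edgeR adjusted p 0.984; 4.89 and 6.58 to 13.3 and 7.75 CPM) and of -1.39 in pericytes (SE 2.86, adjusted p 1; 11.4 and 16.9 to 6.05 and 3.23 CPM).

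From E18.5 to P1, Ccng1 had a fitted log2 change of 8.74 in alveolar fibroblasts (SE 1.24, edgeR adjusted p 0.0284) and of -1.29 in adventitial fibroblasts (SE 0.57, edgeR adjusted p 0.532), where it went from 25.8 and 42.9 to 9.26 and 19.1 CPM. For Phlda3 it was 1.70 in alveolar fibroblasts (SE 0.45, edgeR adjusted p 0.0691; 32.4 and 51.1 to 138.2 and 128.4 CPM) and -2.13 in pericytes (SE 2.12, adjusted p 0.911; 20.1 and 61.3 to 10.4 and 5.04 CPM). For Bax it was 1.97 in alveolar fibroblasts (SE 1.92, edgeR adjusted p 0.608; 53.3 and 0 to 74.2 and 73.5 CPM) and -0.30 in pericytes (SE 0.73, adjusted p 0.995; 131.4 and 153.9 to 116.4 and 115.7 CPM). In alveolar fibroblasts the median of all genes moved by 1.36 over that interval, and the E18.5 values rest on 14 and 24 cells. Fibroblast precursors of the same E18.5 mice (425 and 335 cells), which are not in that lineage, had Ccng1 at 19.9 and 21.8 CPM.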

How the results depend on the processing

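With 2 mice a group, small differences were not detectable, and large ones could fail the threshold too. Under hyperoxia 0% of all genes passed by edgeR in every class. Psrc1 in myofibroblasts, with a fitted log2 difference of 4.89, had an edgeR adjusted p of 0.175. No result changed direction under any alternative run. Of the other p53 targets under hyperoxia, none called by edgeR, DESeq2 called 8 in early alveolar fibroblasts, 5 in early adventitial fibroblasts, 11 in myofibroblasts, 3 in early airway smooth muscle and 1 in vascular smooth muscle. A fit of only the 2 groups compared called 1 in early alveolar fibroblasts and 3 in myofibroblasts, and no filter called 1 in myofibroblasts. Leaving out 1 mouse gave 0 to 14 there (6 without the P1 female, 14 without the P1 male). In vascular smooth muscle, 3 of 10 members lay above with equal weight per cell and with the first plate only of the male hyperoxia mouse.

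For members called from E18.5 to P1 in alveolar fibroblasts (1), the fit with no replicate block, that is without the sex term that pairs mice, called 3, and it changed no other count of called genes. Library totals gave 2, equal weight per cell 2, only the 2 groups compared 0, at least 20 cells 5, DESeq2 4, and leaving out 1 mouse 0 to 5. From P1 to P21 in adventitial fibroblasts (0), only the 2 groups compared gave 1, equal weight 1 and DESeq2 3. In airway smooth muscle (1), DESeq2 gave 4 and leaving out 1 mouse 0 to 1, and in vascular smooth muscle (0) DESeq2 gave 4. A minimum of 20 cells could not be fitted for pericytes from E18.5 to P1 or vascular smooth muscle from P1 to P21.

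The difference in members per cell at 2500 to 4500 genes, an alternative added after the data had been seen, was 2.51 in early alveolar fibroblasts, 1.49 in early adventitial fibroblasts, 4.08 in myofibroblasts, 2.37 in early airway smooth muscle and 0.217 in vascular smooth muscle, against 3.56, 2.86, 5.63, 3.29 and 1.5 in all cells. Early airway smooth muscle gave 2.79 with at least 3 reads and 3 with the first plate only, and vascular smooth muscle 0.997 with the first plate only. The cause of these changes was not tested.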
